A study of Mus musculus with 6 samples.

Results

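The comparison described here is 24 h of TGF-β against no treatment in A20 cells, a B lymphoma line from a BALB/c mouse, without any drug. It used the array titled for TGF-β at 24 h in DMSO and the array titled non-stimulated in DMSO, which are 2 of the 6 samples, and it took in every probe set on both. The source label of the untreated array names normal growth medium only, so the DMSO is known from the titles. The other 4 arrays carried RNA from cells given TGF-β for 12 h, cells kept for 24 h with SP600125, a compound that blocks JNK kinases, and cells given TGF-β for 12 h or 24 h together with SP600125. The study asked which genes TGF-β induces at least 2-fold and which of those inductions the JNK inhibitor reduces. Each condition had 1 array, so no difference below has a replicate check, no test could be run, and every value is a description of these arrays. The labels do not say how many cultures stood behind an array, and they give no TGF-β dose.

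TGF-β is a secreted cytokine that brings a type II receptor and a type I receptor together, upon which the type I receptor phosphorylates Smad2 and Smad3. These join Smad4 in the nucleus and act on target genes, some of which encode inhibitors of the same pathway. In B cells TGF-β is best known for restraining growth, for promoting cell death in some lines, and for steering antibody class switching towards IgA.

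Values are the authors' linear signals from Affymetrix Mouse Genome 430 2.0 arrays, each scaled to the same trimmed mean of 500.0 units. A floor of 74.2 units, the 50th percentile of all signals on the 6 arrays, was put under every value before log2 differences were taken. For each gene the brightest probe set was taken, and the gene was called higher or lower when it differed at least 2-fold, a log2 difference of 1 or more, after the floor. A fold measured from or to the floor is a lower bound and is written as "at least". Of the 45101 probe sets, 34945 carried 1 gene symbol and gave 18193 genes, of which 11444 were above the floor on at least 1 of the 2 arrays and 9810 on both.

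The arrays of the pair were close in the general measures of quality. The actin control's 3′ to 5′ signal ratio, which climbs as RNA degrades, was 1.25 on the TGF-β 24 h array and 1.25 on the untreated array. Over the 6 arrays it ran up to 1.89, on the array for 24 h of TGF-β with SP600125, which also stood apart in its 18S ribosomal RNA control at 5878.2 units, against 506.5 to 881.5 on the other 5. In the pair itself that 18S control was 855.7 with TGF-β and 506.5 without. The 18 probe sets for hybridization controls, which are added in fixed amounts, were all brighter on the TGF-β array, with a median log2 difference of 0.26 (0.05 to 0.50).

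After 24 h of TGF-β, 646 genes were at least 2-fold higher than in untreated cells and 226 were at least 2-fold lower, which is 5.64% and 1.97% of the 11444 genes. Over all 45037 probe sets other than controls, with or without a gene name, 24366 were above the floor, 1195 of them (4.9%) were higher and 534 (2.19%) lower. The difference was 4-fold or more for 73 genes higher and 4 lower, and 8-fold or more for 18 higher and 0 lower. For 112 of the higher genes and 41 of the lower genes the fold is a bound, because the other array lay under the floor. As in any bulk sample, fewer cells expressing a gene and less RNA per cell cannot be told apart. The median log2 difference over all genes was 0.06, with quartiles at -0.27 and 0.41. Where a called gene had other probe sets above the floor, at least 1 of them usually pointed the same way. This held for 267 of 288 higher genes and 79 of 89 lower genes. At least 1 other probe set also reached 2-fold for 130 and 32 of them, and at least 1 was 2-fold the opposite way for 2 and 1. A gene with several other probe sets can count here although some of them disagreed. Dim genes were called more often. Among genes above the floor on both arrays, 8.11% of the dimmest 25% were called higher, against 2.36% of the brightest 25%. The split between higher and lower genes depended on the scaling: 74.1% of the calls were higher with the deposited values, 61.5% with equal medians, 66.5% after quantile normalization, and 38.6% (382 higher and 607 lower) when the hybridization controls were set equal, which shifted the median of all genes to -0.18. Folds below are relative to the deposited scaling, and the counts that follow should be read against 5.64% and 1.97%. At the edge of the 2-fold rule stood Zfp963, with 179.4 units after TGF-β and 89.7 without, just inside, and Hspb11, with 1122.1 and 561.2, just outside. On the lower side Polr1a, with 362.8 and 726.1 units, was just inside and Hirip3, with 2361.1 and 4718.9, just outside.

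**Figure D1:**
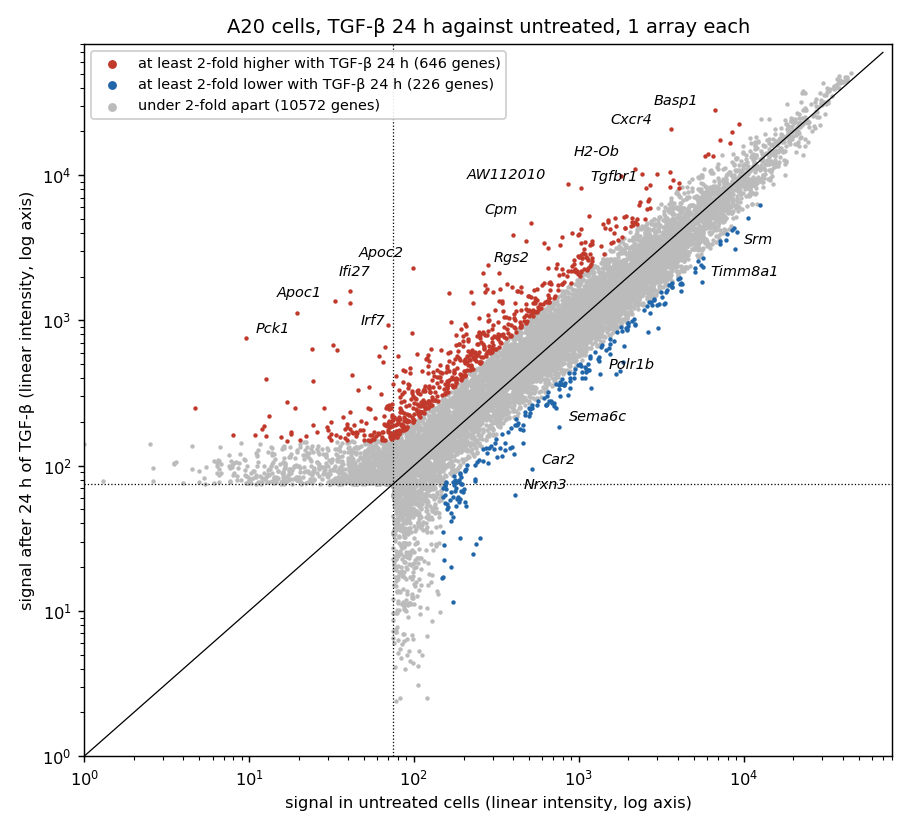
Signal of each gene after 24 h of TGF-β (vertical axis) against untreated cells (horizontal axis), in linear intensity units on log axes, 1 array each; signals under 1 unit are drawn at 1. The dotted lines mark the floor of 74.2 units and the solid line equal signals. The 646 red genes, among them Apoc2, lie above the line and outnumber the 226 blue genes, of which Car2 is one of the farthest below it.

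In the TGF-β pathway itself the largest differences were in some of its inhibitors and in its receptors. Of 12 feedback inhibitors above the floor, 4 were called higher and 0 lower, with a median log2 difference of 0.48 beside 0.06 over all genes. When a gene's probe sets were averaged 2 were called higher and the median was 0.32. Smad7, the inhibitory Smad that blocks the activated type I receptor, had 525.2 units after TGF-β and 123.6 in untreated cells, a 4.25-fold difference. Its signal was already 485.1 at 12 h, and with SP600125 it was 696.6 after 24 h of TGF-β against 121.1 with the drug alone, so the untreated and drug-only arrays were low and every TGF-β array was high. Ldlrad4, a membrane protein that dampens Smad2 and Smad3 signalling, had 582.6 and 104.1 units, 5.6-fold apart. Skil, whose product SnoN is a Smad corepressor, was much brighter, with 10159.0 and 2986.9 units and a 3.4-fold difference. Nedd4l, a ubiquitin ligase acting on activated Smads, had 340.9 against 123.9 units and was 2.75-fold higher. The remaining inhibitors stayed within 2-fold, including Tgif1 at 0.67 and Smurf1 at -0.27 on the log2 scale.

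Among 12 textbook Smad targets above the floor, 5 were called higher and 0 lower, with a median log2 difference of 0.49. Id2, an inhibitor of the E proteins that drive B cell genes, had 3516.9 units after TGF-β and 481.0 without, 7.31-fold apart, and 3387.2 against 1039.0 units were measured for its relative Id3, a 3.26-fold difference. Id1, the third of these inhibitors, had 90.7 and 44.4 units, around the floor. Cdkn2b, which encodes the cell cycle inhibitor p15, had 1292.2 and 582.1 units and was 2.22-fold higher. Bhlhe40, a transcriptional repressor, had 288.5 units at 24 h against 103.4 in untreated cells, but 68.9 at 12 h, so its 24 h array stood above both earlier ones. Tsc22d3, also known as GILZ, behaved alike with 363.2 units at 24 h against 154.1 in untreated cells, and 142.8 at 12 h. Cdkn1a, the gene for p21, had 140.3 units after TGF-β and 143.0 without, a log2 difference of -0.03.

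Both TGF-β receptor chains were higher while the Smads that carry the signal were not. Tgfbr1, the type I receptor, had 8169.6 units after TGF-β and 1031.7 in untreated cells, a 7.92-fold difference, with log2 differences of 1.40 and 1.95 on its other probe sets. Tgfbr2, the type II receptor, had 2775.4 against 996.1 units, 2.79-fold higher, though its other probe set gave 0.42. Smad2, Smad3 and Smad4 had log2 differences of -0.23, 0.17 and -0.05. In the list of 14 receptors and Smads above the floor 2 were called higher and 1 lower, and the median was 0.14. The 1 lower gene was Zfyve9, an anchor for Smad2 and Smad3 at endosomes, with 76.2 units after TGF-β, close to the floor, and 156.6 without. Of 9 ligands and activators, 1 was called higher and 2 lower, with a median of 0.17. Ltbp3, which binds latent TGF-β, had 338.8 and 152.3 units, whereas Nrros, another anchor of latent TGF-β, had 116.7 and 343.6, 2.94-fold lower. Inhba, an activin subunit, had 58.8 units, under the floor, and 183.2 in untreated cells, at least 2.47-fold lower. The ligand gene Tgfb1 itself had 2026.9 and 1437.5 units, a log2 difference of 0.50.

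**Figure D2:**
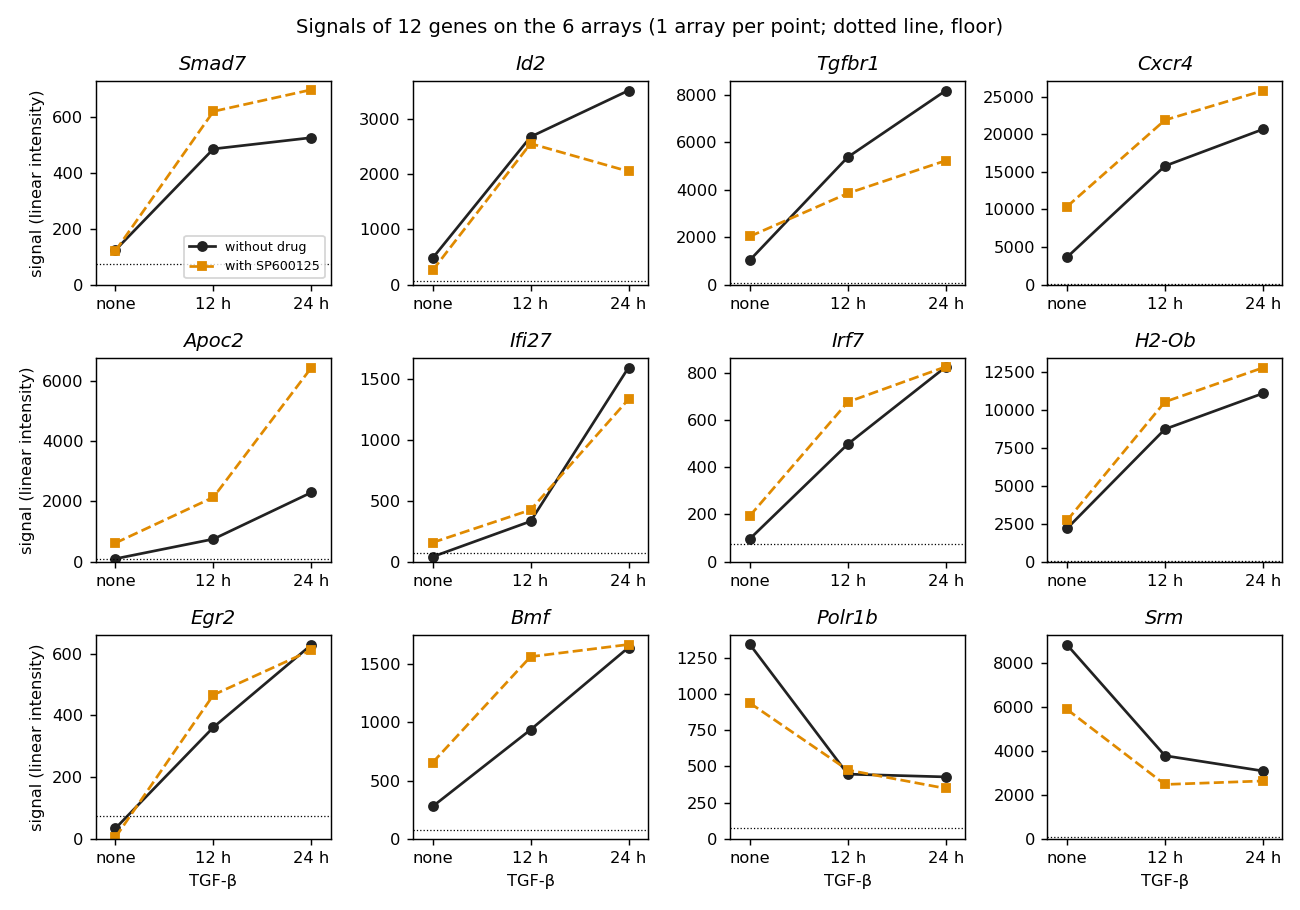
Signals of 12 genes (linear intensity) in cells with no TGF-β and after 12 h and 24 h, without drug (circles, solid line) and with SP600125 (squares, dashed line); each point is 1 array and the dotted line is the floor of 74.2 units. Polr1b and Srm are lower on each TGF-β array than on the array without TGF-β of the same arm, and the other genes, Smad7 and Id2 among them, are higher.

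For IgA class switching, which TGF-β directs in B cells, the data were mixed. Of 11 genes of the switch and of mucosal B cells above the floor, 2 were called higher and 0 lower, with a median log2 difference of 0.21. Neither call held when probe sets were averaged (0 higher and 0 lower) or with the hybridization controls set equal (0 higher and 1 lower). Igha, the IgA constant region, had 244.9 units after 24 h and 103.0 in untreated cells, 2.38-fold apart, against 94.9 at 12 h. This was a low signal from a probe set that can match related sequences, and the gene's other probe set above the floor gave 0.87. Itga4, the integrin chain of gut homing, had 424.4 and 189.7 units, and TACI, encoded by Tnfrsf13b, had 4379.1 and 2492.6. Runx3, a transcription factor that acts with Smads at the IgA locus, had 512.3 and 592.1 units. Ung, the uracil glycosylase needed for switching, had 710.7 units after TGF-β and 1256.0 without, a log2 difference of -0.82.

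B cell identity genes were mostly within 2-fold, and plasma cell genes showed no common direction. Of 23 identity genes above the floor, 2 were called higher and 0 lower, with a median of 0.22. The called genes were Fcrla, an intracellular Fc receptor-like protein of B cells, with 3326.5 units after TGF-β and 1175.4 without, and Bach2, a repressor of plasma cell fate, with 2095.7 and 801.6. Pax5, the factor that maintains B cell identity, stood just short of the rule at 225.0 and 114.7 units. In the plasma cell list 2 of 10 genes were higher and 0 lower, with a median of 0.09. Irf4, needed for plasma cell formation, had 692.2 and 262.4 units, 2.64-fold apart, but with SP600125 it was 289.1 after TGF-β and 356.2 with drug alone. Ell2, an elongation factor for secretory immunoglobulin mRNA, was 2.09-fold higher, while Prdm1, the plasma cell master regulator Blimp-1, had 136.1 and 180.9 units and Xbp1 differed by 0.09 on the log2 scale.

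Of 14 germinal centre genes 12 had log2 differences above 0, and one of those called was very bright. Basp1 had 27911.6 units after TGF-β and 6679.9 in untreated cells, a 4.18-fold difference, and its TGF-β arrays were also the higher ones with the drug, at 12888.5 against 2090.8. Cxcr5, the follicle-homing receptor, had 1432.4 and 540.8 units. 3 members were called higher and 0 lower, with a median of 0.59, and Bcl6, the master regulator of the germinal centre, was within 2-fold at 0.40.

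Genes of MHC class II presentation, which displays peptides to helper T cells had the highest median of the lists. All 13 members above the floor had a log2 difference above 0, 7 were called higher and 0 lower, and the median was 1.2. H2-Ob, which forms part of a dimer that restrains peptide loading, differed most, with 11080.0 units after TGF-β and 2188.7 in untreated cells, 5.06-fold apart. Its partner H2-Oa had 2297.9 and 730.6 units. The classical chain gene H2-Ab1 had 22611.2 units after TGF-β and 9347.9 without, 2.42-fold higher, and its other probe sets gave 1.24 and 1.41 on the log2 scale. H2-Eb1 had 13942.1 and 6075.8 units. Ciita, the coactivator that switches these genes on, had 548.3 and 234.3 units, 2.34-fold apart, with its other probe sets spread between 0.07 and 1.75. Ifi30, a lysosomal thiol reductase that prepares antigen, and H2-DMb2, a chain of the peptide-loading dimer, were 2.41-fold and 2.48-fold higher. The invariant chain gene Cd74 and the protease gene Ctss had smaller log2 differences of 0.51 and 0.28. With the hybridization controls set equal the group's median was 0.94 with 5 genes called higher. Marchf1, a ubiquitin ligase that removes MHC class II and CD86 from the surface, was higher as well, with 681.7 units after TGF-β against 32.2 without, at least 9.19-fold. MHC class I genes had 0 of 14 members called higher and 0 lower and a median of 0.31, with the peptide transporter genes Tap1 and Tap2 at 0.99 and 0.87.

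Costimulatory genes were called higher for 3 and lower for 1 of 16 members, with a median of 0.24. Cd83, an activation marker that stabilizes MHC class II and CD86, had 3993.5 units after TGF-β and 907.4 without, 4.4-fold apart. Cd86, a ligand of CD28, had 407.1 and 141.5 units, and Cd40, the receptor for T cell help, had 2871.2 and 1422.1. Slamf7 ran the other way with 267.1 and 643.2 units, 2.41-fold lower. Among 13 inhibitory receptors and phosphatases 3 were higher and 0 lower, with a median of 0.60. They included the lipid phosphatase SHIP-1, encoded by Inpp5d, at 4759.0 and 2188.7 units, and the phosphatase gene Inpp5f at 3354.8 and 1191.0. The third, Ceacam1, had 232.4 units after TGF-β and 41.0 without, but its other probe sets gave only -0.29 to 0.54.

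B cell receptor signalling genes were called higher for 0 and lower for 1 of 19, with a median of 0.32. The 1 lower call, Pik3cd, the catalytic chain of a lymphocyte PI3 kinase, had 881.9 and 3009.2 units, yet its 3 other probe sets were higher, by 0.35 to 0.73 on the log2 scale, so the gene's direction was not settled.

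Some receptors that guide B cell migration were higher, and one of them was very bright. Cxcr4, the receptor for the chemokine CXCL12, had 20660.5 units after TGF-β and 3644.7 in untreated cells, a 5.67-fold difference. The drug-only array was itself high at 10380.6, so that the difference with SP600125 was 1.31 on the log2 scale against 2.50 without. S1pr1, the sphingosine phosphate receptor for exit from lymphoid organs, had 681.1 and 179.4 units, and the orphan-type receptor gene Gpr18 had 717.8 and 214.3. In this list of chemokine and migration genes 4 of 12 members were called higher and 0 lower, 3 had log2 differences below 0, and the median was 0.72. Adhesion genes had 3 of 17 higher and 0 lower, with a median of 0.43, and 1 call was left when probe sets were averaged and likewise with the hybridization controls set equal. They were Selplg, the selectin ligand PSGL-1, at 611.8 and 186.4 units, the Itgal chain of LFA-1 at 1766.7 and 791.6, and Itga4, described above.

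Vim, an intermediate filament protein, had 1641.1 units after TGF-β and 331.7 without, 4.95-fold apart, and its other probe sets gave 1.71 and 2.10. Cnn3, a calponin, had 93.8 and 204.2 units and was called lower. Of 16 G protein regulators and related receptors 4 were higher and 1 lower, with a median of 0.46. Rgs2, which shuts off G protein signals, had 2111.4 units after TGF-β and 262.1 without, a 8.06-fold difference, and its other probe sets ranged from 0.28 to 3.23. P2ry10 and the prostaglandin receptor genes Ptger4 and Ptgir were 2.51-fold, 2.06-fold and 2.06-fold higher, and Rgs3 was 2.07-fold lower.

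Interferon-stimulated genes held some of the largest differences. Of 25 such genes with a probe set here 17 were above the floor, 9 of these were called higher and 0 lower, and the median log2 difference was 1.17, from -0.44 to 4.43. Ifi27, a mitochondrial membrane protein and classic interferon target, had 1596.0 units after TGF-β and 40.8, under the floor, in untreated cells, at least 21.5-fold higher. Its other probe set gave 4.27. Irf7, the transcription factor that amplifies interferon production, had 824.2 and 96.8 units, 8.51-fold apart, and Usp18, which restrains interferon receptor signalling, had 565.3 and 61.6, at least 7.62-fold. Irf9, the DNA-binding part of the interferon-activated complex, had 775.7 and 197.8 units. Xaf1 had 543.0 and 118.3 units, though its other probe set differed by only 0.03. The cytosolic RNA sensors Ddx58 (RIG-I) and Dhx58 (LGP2) had 222.7 against 73.9 units and 213.3 against 57.7, at least 3-fold and 2.87-fold, and Ifih1 (MDA5) had 142.9 and 68.5. Oasl1 and Parp14 were 2.28-fold and 2.25-fold higher. The group was not uniform: Bst2, the antiviral protein tetherin, had 850.8 units after TGF-β and 1156.6 without, Ifit2 had 208.0 and 230.9, and 8 members (Ifit1, Ifit3, Mx1, Mx2, Oas1a, Oasl2, Gbp2 and Rtp4) were under the floor on both arrays. At 12 h the group's median was 0.56, on a comparison that shares the untreated array. With SP600125, on arrays of its own, it was 0.77. Averaging all probe sets of a gene brought the 24 h median to 0.58 with 7 called higher.

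Ifih1 and Ddx58, the RNA sensor genes of the group whose windows hold the core, are shown with their promoter windows, 250 bases before to 50 after the gene start, from RefSeq on build GRCm38.p6. Capitals mark the core of the interferon response element, which is GAAA, any 2 bases and GAAA, searched on both strands. The core was in 5 of the 12 group members with a window, beside 3.39% of the 9302 genes above the floor with a promoter and 3.44% of all 32851 windows. The match in Ifih1 (chr2:62646206-62646505, minus strand) starts 32 bases after the gene start, and that in Ddx58 (chr4:40239776-40240075, minus strand), which reads on the opposite strand, starts 2 bases after it.
Ifih1: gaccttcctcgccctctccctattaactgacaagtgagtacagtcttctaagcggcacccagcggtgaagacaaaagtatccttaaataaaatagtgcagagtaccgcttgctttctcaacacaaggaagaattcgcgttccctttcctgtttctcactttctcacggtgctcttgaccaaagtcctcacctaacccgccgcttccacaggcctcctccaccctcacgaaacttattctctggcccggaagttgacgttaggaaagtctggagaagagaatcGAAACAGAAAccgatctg
Ddx58: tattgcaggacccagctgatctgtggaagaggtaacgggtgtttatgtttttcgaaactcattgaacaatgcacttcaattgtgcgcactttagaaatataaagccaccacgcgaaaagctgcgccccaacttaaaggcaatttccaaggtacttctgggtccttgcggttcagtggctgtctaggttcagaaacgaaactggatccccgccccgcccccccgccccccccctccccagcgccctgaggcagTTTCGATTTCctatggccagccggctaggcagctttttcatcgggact
Of the higher genes with a promoter 5.14% held the core, and of the lower genes 2.12%. The other members with a match were Stat2, Rsad2 and Bst2. Of the 5 members with the core 1, Ddx58, was called higher, while Ifih1, Stat2 and Rsad2 stayed within 2-fold, with log2 differences of 0.95, 0.92 and 0.72, and Bst2 was below 0. These letters are a description of the windows and show no binding.

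Interferon regulatory factors as a family had 4 of 8 called higher and 0 lower, with a median of 0.87. Besides Irf7, Irf9 and Irf4 this was Irf1, at 834.6 and 414.6 units. Irf8, a factor of B cells and myeloid cells, had 774.8 units after TGF-β and 1053.0 without. In the JAK, STAT and SOCS list 1 of 11 was higher and 0 lower, with a median of 0.49, the call being Tyk2 at 422.5 and 204.2 units. Its other probe set was near the floor, at 81.7 and 9.4 units, and gave 0.14. With median scaling or quantile normalization 0 members of this list were called higher.

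Several NF-κB pathway genes were higher, among them the pathway's own inhibitors. Of 19 above the floor 7 were called higher and 0 lower, with a median of 0.81, beside 0.20 at 12 h. Nfkbia, the inhibitor IκBα and one of the brightest genes to differ, had 19968.4 units after TGF-β and 8511.9 without, 2.35-fold apart, and its other probe sets gave 1.16 to 1.77. Tnfaip3, the deubiquitinase A20 that curbs the pathway and shares only its name with the cell line, had 1307.1 and 526.8 units. Relb and Nfkb2, subunits of the noncanonical arm, had 608.1 against 247.8 and 744.8 against 323.6 units. Traf1, Nfkbiz and Nfkbie were 2.84-fold, 2.59-fold and 2.58-fold higher. At 12 h Traf1 and Nfkbiz had stood at 118.6 and 200.5 units, near their untreated values of 109.4 and 181.5.

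Immediate-early genes, which usually answer a stimulus within the hour, were in part higher a full day after TGF-β was added. 8 of 19 members were called higher and 0 lower, 11 stayed within 2-fold, and the median was 0.92. Egr2, a zinc finger factor that restrains lymphocyte activation, had 628.9 units after TGF-β and 34 in untreated cells, at least 8.48-fold, and its other probe set gave 2.61. Egr1 had 5093.9 and 2101.0 units. The antiproliferative genes Btg1 and Btg2 had 6561.7 against 2338.1 and 4239.4 against 1551.4 units, and Zfp36 and Zfp36l1, which promote mRNA decay, were 2.42-fold and 2.27-fold higher. Fos was within 2-fold at 299.6 and 258.8 units. Egr3 and Nr4a2 were low genes and lower at 24 h than at 12 h, with 160.6 units at 24 h against 209.2 at 12 h for Egr3 and 169.4 against 213.3 for Nr4a2.

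The JNK and AP-1 list, the pathway that SP600125 targets, had 2 of 17 members higher and 0 lower, with a median of 0.23 that turned to -0.01 with the hybridization controls set equal. Jund had 10542.6 units after TGF-β and 3567.6 without, 2.96-fold apart, Map3k1 had 321.3 and 158.8, and Junb had 1709.5 and 881.7. Jun itself had 113.0 and 95.9 units, and the kinase genes Mapk8 and Mapk9 had log2 differences of 0.00 and 0.40. Among 12 dual-specificity phosphatases and Sprouty-type inhibitors 1 was higher and 0 lower, with a median of 0.32, the call being Dusp6, an ERK phosphatase, at 4564.0 and 2119.2 units.

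Of the BCL2 family, which decides on mitochondrial cell death, 2 of 11 members were called higher and 0 lower, with a median of 0.25. Both calls were BH3-only proteins, which promote death. Bmf had 1642.9 units after TGF-β and 277.9 in untreated cells, 5.91-fold apart, and in the drug arm 1668.7 against 655.1. Bbc3, which encodes PUMA, had 1032.8 and 379.7 units, and in the drug arm 1970.2 against 1605.4. Bcl2l11, encoding BIM, was bright on both arrays, at 15963.3 and 13428.2, and the survival gene Mcl1 had 10657.4 and 6278.0. Death receptors and caspases had 0 of 16 called in the higher and 0 in the lower direction, with a median of 0.52. Their largest log2 difference was 0.97, of the inhibitor gene Birc2.

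Of the stress programmes the p53 targets had the largest share of higher calls. Among 18 p53 targets 3 were higher (16.7%) and 0 lower, with a median of 0.30: Trp53inp1, at 3402.5 and 619.4 units, Bbc3, and Sesn2, at 214.0 and 74.9, whose other probe set ran the opposite way at -1.57. The list had no common direction, with 11 log2 differences above 0 and 7 below. Cdkn1a and Mdm2 were within 2-fold, at -0.03 and 0.31. The list's median was 0.01 when probe sets were averaged, with 2 called higher. With the hybridization controls set equal it was 0.04, with 3 higher and 2 lower. The unfolded protein and ATF4 list had 2 of 24 higher and 0 lower and a median of -0.05, with Ddit4, an inhibitor of mTORC1, at 866.9 and 296.1 units beside Sesn2. Redox genes had 1 of 19 higher and 0 lower and a median of -0.02, the call being Txnip, which binds thioredoxin, at 4789.0 and 2113.9 units.

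Among cell cycle genes some inhibitors were higher, and a few replication genes were lower. CDK inhibitors and related genes had 3 of 13 members higher and 0 lower, with a median of 0.36. Cdkn1b, the gene for p27, had 1318.1 units after TGF-β and 409.3 without, 3.22-fold apart, and was 1258.0 at 12 h. Ccng2, a cyclin of arrested cells, had 8297.3 and 3579.1 units, and Cdkn2b was given above. G1/S cyclins and their partners had 0 called higher and 0 lower of 15, with a median of -0.41. DNA replication genes were seldom 2-fold apart but pointed one way: with the deposited scaling all 32 had log2 differences below 0, 3 were called lower and 0 higher, and the median was -0.55. Gins1, of the replicative helicase, had 685.1 units after TGF-β and 1547.6 in untreated cells, 2.26-fold lower. Pola2, a subunit of DNA polymerase α, had 1410.7 and 2873.3 units, though its other probe sets gave -0.38 and 0.38, and Orc1, of the origin recognition complex, had 431.8 and 873.7. Mcm2, of the MCM helicase, had 4969.5 and 7687.9 units. Its 12 h signal was 8068.7, and the median of the list at 12 h was -0.21. Mitotic genes had a median of -0.49, with 1 called lower, 0 higher and 27 of 31 below 0, against a 12 h median of 0.16. Ccna2, cyclin A2, had 7798.1 units in untreated cells, 6824.2 at 12 h and 3579.5 at 24 h. In the drug arm the medians of the replication and mitosis lists were -0.76 and -0.75.

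Genes for making ribosomes had more lower calls than any other of the 54 lists. Of 30 ribosome biogenesis genes 7 were called lower and 0 higher, 29 had log2 differences below 0, and the median was -0.83. Polr1b, the second subunit of RNA polymerase I, had 427.5 units after TGF-β and 1342.7 in untreated cells, 3.14-fold lower, and was 446.5 at 12 h. The largest subunit gene, Polr1a, had 362.8 and 726.1 units. Rrp9, a protein of the U3 particle that processes ribosomal RNA, had 584.9 and 1555.7 units, and Bysl, of the small subunit's assembly, had 1287.2 and 3272.5. Nolc1, a nucleolar chaperone, had 2326.0 and 5671.6 units, 2.44-fold lower, with -1.84 and -1.51 on its other probe sets. Rrp12 and Nop2 were 2.33-fold and 2.18-fold lower. The bright nucleolar protein gene Npm1 had 30518.1 and 30103.4 units. The median was -0.76 at 12 h and -0.54 in the drug arm, and with the hybridization controls set equal it was -1.09 with 16 genes called lower. Ribosomal protein genes did not share this: 0 of 17 were called higher and 0 lower, and their median was 0.19.

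Ribosome biogenesis genes are textbook targets of MYC, which binds the E-box CACGTG with MAX. The E-box was in 5 of 25 promoter windows of this list (20.0%), in 36 of 189 lower genes with a promoter, in 10.3% of the higher genes, in 11.7% of all genes above the floor with a promoter and in 7.15% of all windows. The E-box was also in 2 of 9 windows of the Smad targets and in 0 of 6 of the Smad feedback genes. It reads the same on both strands. Nop2 (chr6:125131633-125131932, plus strand) and Mybbp1a (chr11:72441077-72441376, plus strand) are shown with it in capitals, at 60 bases before and 40 bases after the gene start.
Nop2: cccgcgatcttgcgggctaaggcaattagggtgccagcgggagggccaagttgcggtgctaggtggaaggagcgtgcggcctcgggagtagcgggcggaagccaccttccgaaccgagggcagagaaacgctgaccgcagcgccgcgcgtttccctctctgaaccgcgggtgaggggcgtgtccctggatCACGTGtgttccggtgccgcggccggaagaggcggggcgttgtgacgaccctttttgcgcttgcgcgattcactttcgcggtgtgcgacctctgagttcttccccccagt
Mybbp1a: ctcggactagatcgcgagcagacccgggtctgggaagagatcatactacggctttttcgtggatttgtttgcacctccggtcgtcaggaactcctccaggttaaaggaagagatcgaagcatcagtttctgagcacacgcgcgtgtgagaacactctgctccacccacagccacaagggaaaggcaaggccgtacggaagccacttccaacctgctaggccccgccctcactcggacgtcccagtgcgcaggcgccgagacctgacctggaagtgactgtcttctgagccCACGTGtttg
Mybbp1a, which encodes a nucleolar MYB-binding protein, had 6353.3 units after TGF-β and 12016.4 without, and so was not called. Of the 5 list members with the E-box only Nop2 was called lower. Mybbp1a, Utp20, Pes1 and Wdr43 stayed within 2-fold, with log2 differences of -0.92, -0.90, -0.70 and -0.63. The palindromic Smad box GTCTAGAC was rare everywhere, in 0.312% of the genes above the floor with a promoter, in 1 of 525 higher genes (Tnfaip3) and in 0 of 189 lower genes, and none of the Smad feedback or Smad target genes held it in this window.

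**Figure D3:**
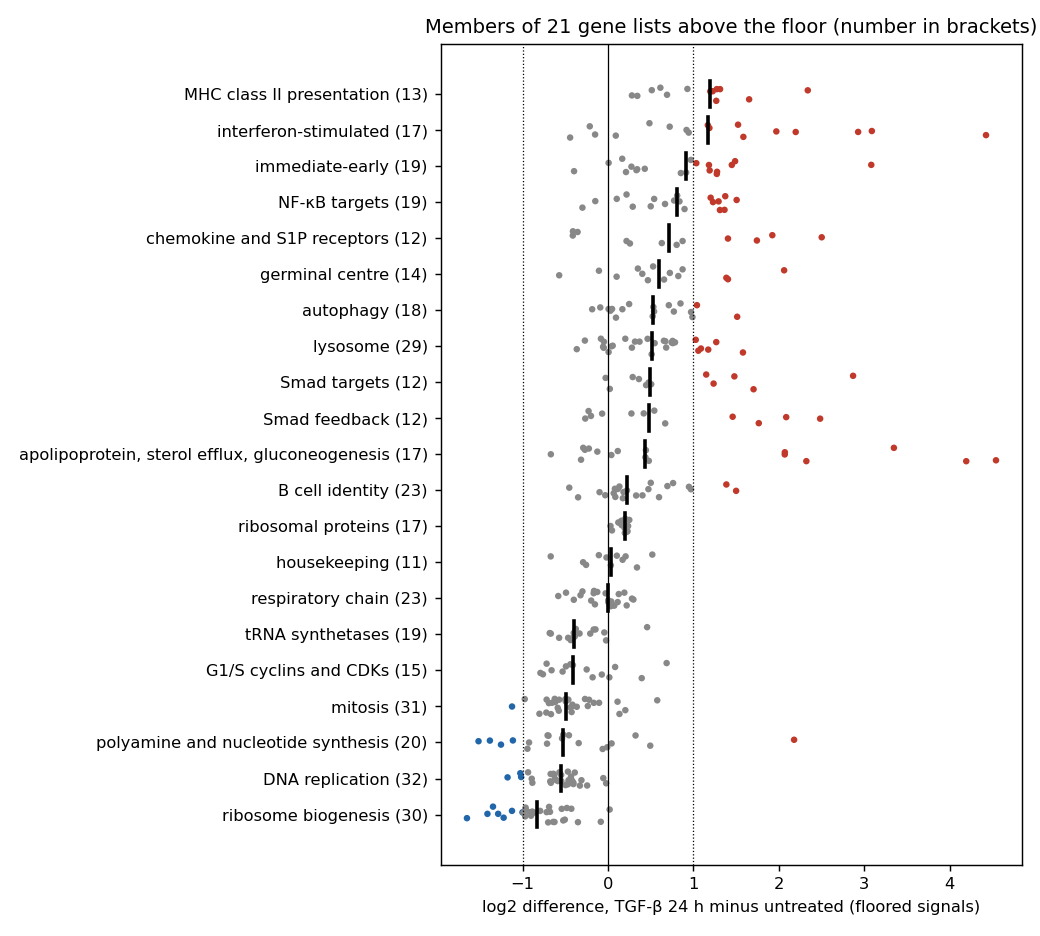
Log2 differences, TGF-β 24 h minus untreated, of the members above the floor in 21 gene lists, 1 point per gene, with the list's median as a black bar and the 2-fold limits dotted; red and blue points are called higher and lower. MHC class II genes have the highest median, 1.2, and ribosome biogenesis genes the lowest, -0.83.

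Myc itself did not reach the 2-fold rule at 24 h, and its 12 h signal was the lowest of the time course: 4364.8 units in untreated cells, 1497.1 at 12 h and 2788.5 at 24 h. In the drug arm it was 1896.6 after 24 h of TGF-β and 4039.8 with drug alone. Mxd4 and Mxd1, partners of MAX that oppose MYC, were higher, with 1326.9 and 343.8 units for Mxd4 and 515.2 and 249.5 for Mxd1. Other probe sets of Mxd4 ran from -0.57 to 2.27. Mycn was also called, with 193.6 units after TGF-β and 39.5, under the floor, without. In all 3 of 11 MYC network genes were higher and 0 lower, with a median of 0.50. Of the 11, 7 had log2 differences above 0 and 4 below. With the hybridization controls set equal 2 were called higher and 1 lower.

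Of 20 genes of polyamine and nucleotide synthesis 4 were called lower and 1 higher, 15 stayed within 2-fold, and the median was -0.53. Odc1, ornithine decarboxylase, the first enzyme of polyamine synthesis, had 11595.7 units after TGF-β and 12107.5 in untreated cells, a log2 difference of -0.06. Srm, spermidine synthase, had 3084.6 units after TGF-β and 8819.7 in untreated cells, 2.86-fold lower. Sat1, the enzyme that breaks polyamines down, was the 1 higher member with 5250.8 and 1158.9 units, 4.53-fold. The pyrimidine enzyme gene Cad had 1132.5 and 2698.4 units, the purine enzyme gene Gart had 3338.5 and 7222.4, and Shmt1, of folate metabolism, had 1597.1 and 4164.2. Transfer RNA synthetase genes had a median of -0.40 with 0 called higher and 0 lower of 19. Proteasome genes had 0 higher and 1 lower of 21 and a median of -0.15, the call being Psmc4 at 4035.7 and 9173.7 units, with -0.43 on its other probe set. Respiratory chain genes had 0 higher and 0 lower of 23 and a median of 0.00, and common reference genes such as Actb had 0 and 0 of 11, with a median of 0.03 (-0.67 to 0.52).

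Among genes above the floor on both arrays the largest fold belonged to an apolipoprotein. Apoc2, the cofactor of lipoprotein lipase, had 2295.3 units after 24 h of TGF-β and 98.4 in untreated cells, a 23.3-fold difference, and 750.0 at 12 h. Apoc1 had 1359.5 and 33 units, at least 18.3-fold, and Apoe had 472.4 and 94.4, 5-fold. SP600125 alone was itself the higher of the arrays without TGF-β for these genes, with 621.5 units for Apoc2, 605.4 for Apoc1 and 337.4 for Apoe. The cholesterol exporters Abca1 and Abcg1 had 10156.2 against 2416.6 and 1041.9 against 248.1 units. Other probe sets of Abca1 gave 1.88 and 1.91, but that of Abcg1 gave 0.33. Pck1, the rate-limiting enzyme of gluconeogenesis, had 755.7 units after TGF-β and 9.6 in untreated cells, at least 10.2-fold, and 936.3 at 12 h. Together 6 of 17 genes of this list were higher and 0 lower, with a median of 0.44, so the list held a few large differences and many small ones. Cholesterol synthesis genes had 0 higher and 0 lower of 20, with a median of 0.13. Glycolysis and hypoxia genes had 1 higher and 1 lower of 22, with a median of -0.19: Aldoc, an aldolase, had 1685.0 and 393.8 units, and Slc16a3, the lactate exporter, 143.7 and 359.2. The other probe set of Aldoc gave 0.48, measured from the floor. The 22 include Pigq, with a log2 difference of -0.15, which is not a glycolysis gene, so the median is not of such genes alone.

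Lysosome genes were called higher for 6 and lower for 0 of 29 members, with a median of 0.51 and 2 calls left when the hybridization controls were set equal. Cd68, a lysosomal glycoprotein, had 1481.5 units after TGF-β and 495.3 without, Grn, progranulin, had 2697.6 and 1195.3, and Ctsh, cathepsin H, had 13497.0 and 6480.9. Cathepsin L, from Ctsl, and the proton pump subunit gene Atp6v0d1 were 2.13-fold and 2.04-fold higher. Autophagy genes had 2 of 18 higher and 0 lower, with a median of 0.53, the calls being Map1lc3a, at 793.8 and 278.1 units, and the cargo receptor gene Nbr1, at 3579.9 and 1738.5. Their other probe sets stayed within 2-fold, at 0.52 for Map1lc3a and 0.45 for Nbr1.

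**Figure D4:**
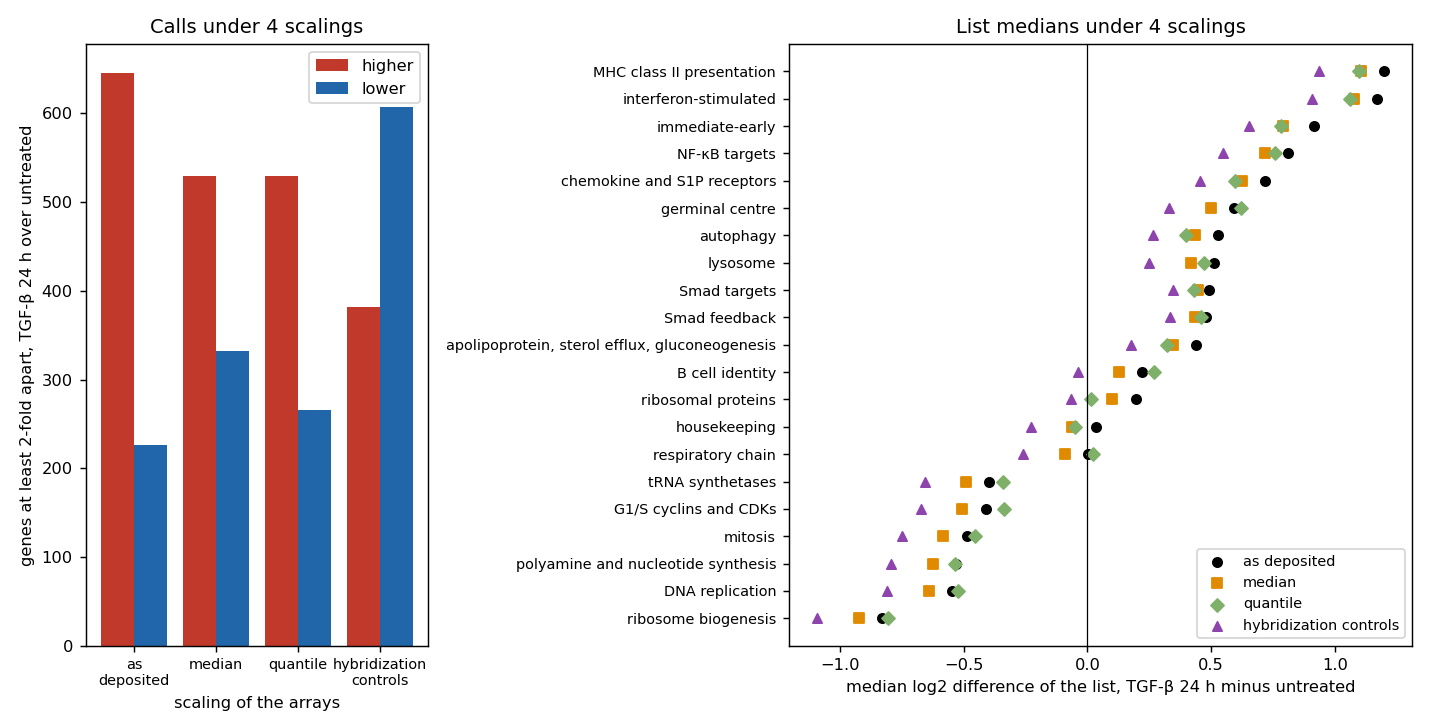
Left, genes called at least 2-fold higher (red) and lower (blue) after 24 h of TGF-β under 4 scalings of the arrays. Right, the median log2 difference, TGF-β 24 h minus untreated, of 21 gene lists under the same scalings. Scaling to the hybridization controls gives 382 higher and 607 lower genes instead of 646 and 226, and MHC class II stays the list with the highest median and ribosome biogenesis the one with the lowest.

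The sign of the small list medians depended on the scaling. With the hybridization controls set equal the median turned to -0.12 for TGF-β receptors and Smads, -0.05 for IgA switching, -0.04 for B cell identity and -0.17 for plasma cell genes. It also turned to -0.05 for the BCL2 family, -0.13 for cholesterol synthesis, -0.07 for ribosomal proteins and -0.23 for the common reference genes, and to -0.26 and -0.22 for the respiratory chain and chromatin genes. Those of the respiratory chain, chromatin and reference genes were also below 0 with equal medians. The medians of the Smad feedback genes, the Smad targets, MHC class II, the interferon group, NF-κB and immediate-early genes stayed above 0 under each of the 4 scalings, and those of replication, mitosis, ribosome biogenesis and polyamine and nucleotide synthesis stayed below 0.

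The counts of calls moved in several lists. With the hybridization controls set equal the higher calls were 3 instead of 5 among the Smad targets, 1 instead of 3 among the CDK inhibitors (with 1 lower), 2 instead of 4 among the cytokine receptors and likewise among the G protein regulators, and 1 instead of 2 for the plasma cell, JNK and AP-1 and autophagy genes. The lower calls were then 6 instead of 3 for replication, 3 instead of 1 for mitosis, 2 instead of 0 for the G1/S cyclins and 2 instead of 0 for the p53 targets. When probe sets were averaged the higher calls were 2 instead of 4 among the cytokine receptors, 1 instead of 3 among the inhibitory receptors and in the MYC network, 1 instead of 2 for the TGF-β receptors and Smads, plasma cell, BCL2 family, autophagy, unfolded protein and Toll-like lists, and 0 instead of 2 for the JNK and AP-1 list. With equal medians ribosome biogenesis had 12 lower calls instead of 7, and the lysosome list had 3 higher calls instead of 6. With the hybridization controls set equal the single higher calls in the redox, TGF-β ligand, JAK, STAT and SOCS, dual-specificity phosphatase and chromatin lists were lost. Averaging the probe sets lost the single higher calls in the redox and ligand lists and the single lower calls in the B cell receptor and proteasome lists.

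Cytokine receptors were called higher for 4 and lower for 0 of 15 members, with a median of 0.51. Il1r2, the decoy receptor for IL-1, had 516.4 units after TGF-β and 65.3 in untreated cells, at least 6.96-fold. Il21r had 1630.0 and 666.9 units. Ifngr2 had 1436.3 and 660.2, with 0.38 on its other probe set, and Il10rb had 1160.2 and 490.1, with -0.29 on its other probe set. Outside the lists, Ifnlr1, a chain of the interferon-λ receptor, was among the largest differences, with 3891.6 and 398.3 units, 9.77-fold. Toll-like, complement and Fc genes had 2 higher and 1 lower of 14, with a median of 0.33. Tlr2, a sensor of bacterial lipopeptides, had 367.5 and 92.1 units, Ncf1, of the phagocyte oxidase, 2490.0 and 1025.0, and Cd180, a B cell Toll-like receptor relative, 359.1 and 759.3. Chromatin genes had 1 higher and 0 lower of 19, with a median of 0.04, the call being Hdac5 at 452.6 and 210.0 units.

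Other genes with the largest differences came from no list. AW112010, an interferon-inducible transcript of lymphocytes, had 8656.4 units after TGF-β and 858.1 in untreated cells, 10.1-fold apart. Cpm, a membrane carboxypeptidase, had 4678.2 and 515.4 units, and Slc38a6, of an amino acid transporter family, had 2388.3 and 283.4. The membrane protein genes Ms4a4c, Ms4a6c and Ms4a6b, relatives of the CD20 gene, were all under the floor in untreated cells and had 1307.6, 1132.5 and 637.6 units after TGF-β, at least 17.6-fold, 15.3-fold and 8.59-fold higher. CD20 itself, encoded by Ms4a1, had 16048.3 and 14818.8 units. The 3 relatives resemble each other in sequence, and their probe sets may share signal. Aif1, an actin-binding protein of macrophages, had 1551.4 and 164.3 units. B3gnt5, a glycolipid glycosyltransferase, had 924.7 and 69.3, and Gsn, gelsolin, which severs actin, had 653.2 and 66.9, at least 12.5-fold and 8.8-fold. Trio, the volume-regulated anion channel gene Lrrc8c and the semaphorin gene Sema3b were 6.46-fold, 6.44-fold and 7.15-fold higher. Sema3b had 569.3 and 79.6 units, but with SP600125 it was under the floor on both arrays, at 58.0 after TGF-β and 9.4 with drug alone.

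On the lower side the folds were smaller. Car2, carbonic anhydrase 2, had 94.6 units after TGF-β and 519.7 in untreated cells, 5.49-fold lower, with 260.3 at 12 h. Nrxn3, a neurexin, had 63.0 and 409.9 units, at least 5.52-fold, and the array for TGF-β with SP600125 had 207.4 against 218.4 with drug alone. Sema6c had 185.5 and 763.1 units but 0.07 on its other probe set. Exosc1, of the RNA exosome, had 445.8 and 1784.4 units, 4-fold lower, with its other probe sets at -1.57 and -0.99. Ifrd2 had 426.8 and 1688.3 units, and Timm8a1, a mitochondrial import protein, 1851.3 and 5574.0. Pinx1, a telomerase inhibitor that also sits in the nucleolus, had 249.0 and 731.3 units. Ackr2, a scavenger of chemokines, Tbxa2r, the thromboxane receptor, and Epcam, an epithelial adhesion protein, were under the floor after TGF-β and had 190.4, 204.9 and 200.1 units in untreated cells, at least 2.57-fold, 2.76-fold and 2.7-fold lower.

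Beside these stand the 2 nearest comparisons. At 12 h without drug, on a pair that shares the untreated array, 386 genes were called higher and 171 lower, 3.38% and 1.5% of 11427 genes. At 24 h with SP600125, on a pair that shares no array with the one described here, 549 genes were higher and 239 lower, 4.6% and 2.0% of 11946. Of the 646 genes higher without drug, 221 were also called higher with drug, which is 34.2% of the list without drug and 40.3% of the list with drug, and 3 were called lower. Of the 226 lower genes 57 were also lower with drug, 25.2% and 23.8% of the lists, and 2 were called higher. The median log2 difference in the drug arm was 0.77 for the genes higher without drug and -0.64 for the lower ones. Genes with similar differences in both pairs included Id2, at 2.87 without and 2.98 with drug, Egr2, at 3.08 and 3.04, and H2-Ob, at 2.34 and 2.23. Tgfbr1 had 2.99 without and 1.36 with drug, Abcg1 2.07 and 0.33, Irf4 1.40 and -0.30, and Bbc3 1.44 and 0.30. The drug-only array was itself high for Bbc3, at 1605.4 units against 379.7 in untreated cells, and for Tgfbr1, at 2030.5 against 1031.7. For Irf4 these signals were 356.2 and 262.4 units, and for Abcg1 265.4 and 248.1. Cd40 had the larger difference with drug, at 1.01 without and 2.43 with it, its drug-only array being low at 491.1 units. With 1 array per condition none of these gaps between the pairs could be tested, and the drug pair holds the array with the high 18S signal and the high actin ratio.

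**Figure D5:**
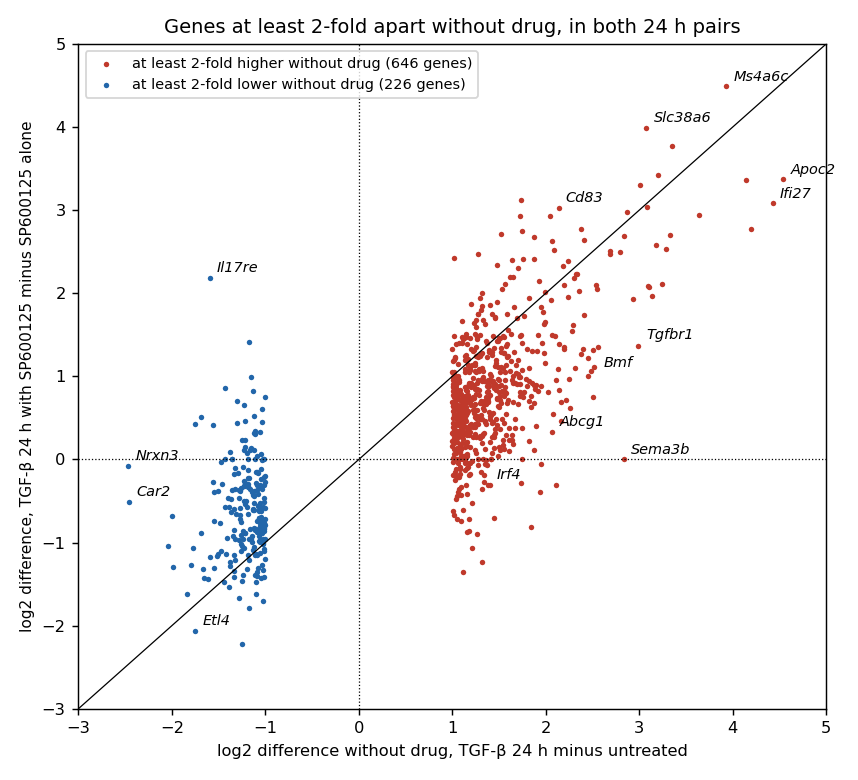
Log2 differences after 24 h of TGF-β for the 872 genes at least 2-fold apart without drug: without drug on the horizontal axis (TGF-β minus untreated) and with drug on the vertical axis (TGF-β with SP600125 minus SP600125 alone). The solid line marks equal differences. Ms4a6c and Slc38a6 lie above it, Tgfbr1 and Sema3b below it, and Il17re is lower without drug and higher with it.

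The labelled cell type was checked against its markers. All 10 B cell markers with a probe set here were above the floor on both arrays, with Cd79b at 19064.8 units after TGF-β and 13467.9 in untreated cells, and 0 were called higher and 0 lower, with a median of 0.42. Of 13 myeloid markers 4 were above the floor on both arrays (Cd68, Adgre1, Csf1r and Cybb) and 2 on the TGF-β array only, while Cd14, Lyz2, Itgam, Fcgr1, Csf3r, S100a8 and S100a9 were under it on both. Their summed signal was 5036.2 with TGF-β and 2777.5 without, between 1958.4 and 5036.2 over the 6 arrays, and Cd68 was the 1 marker called higher. All 6 myeloid markers above the floor on at least 1 array of the pair had log2 differences above 0, with a median of 0.61. Cybb had 2304.9 units after TGF-β and 1425.9 without, and Adgre1 had 496.6 and 271.3. In this pair the sum was higher with TGF-β, as were Aif1, the Ms4a6 genes, the apolipoproteins and Tlr2. Over the 6 arrays they did not all run together. The sum was highest on the TGF-β 24 h array without drug. Apoc2 had 2295.3 units there and 6433.7 with SP600125 at 24 h. Apoc1, Apoe, Ms4a6c and Tlr2 were also higher with the drug at 24 h, and Aif1 and Ms4a6b were lower. A link between the sum and these genes was not tested. T and NK cell markers summed to 446.4 and 667.3 units with 8 of 10 under the floor on both arrays, Cd3e, Cd3g and Cd3d among them. Of the other T and NK markers Zap70 had 300.8 units after TGF-β and 302.0 without, and Cd8a 38.1, under the floor, and 144.0. Fibroblast markers summed to 463.8 and 455.3 units, and erythroid and platelet markers to 468.4 and 514.8. In each of these 3 lists 0 were called higher and 0 lower.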

How the data were processed

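Total RNA of A20 cells was labelled as biotinylated cRNA and hybridized to Affymetrix Mouse Genome 430 2.0 arrays, per the labels' protocols. The authors deposited linear signal intensity values from GCOS 1.2 (the software per the submitters' processing notes), whose settings were not stated. Each deposited column has a trimmed mean (2% off each end) of 500.0. Detection calls were not used, and the precision is limited by 1 array per condition.

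Probe sets were named from GEO's platform annotation: 34945 with 1 symbol were used, 932 with several and 9211 not listed were not, and 34741 had a gene ID in the RefSeq table. The floor was the 50th percentile of all signals. The brightest probe set over the 6 arrays stood for a gene, and log2 differences of floored intensity were computed with Python 3.11.15, numpy 2.4.6 and pandas 2.3.3. The calling step was tested on simulated data. Genes at least 2-fold apart were called, and no test was possible with 1 array a side.

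The genes named are the 15 with the largest difference in each direction above the floor on both arrays, the 10 with the largest bounded difference in each direction, and from each of 54 lists the first 3 members and up to 6 called members in each direction. Others named beside them (list members within 2-fold, edge genes and markers) were chosen after their values were seen. The comparison and the lists were chosen with earlier results of these data known. The counts of 1 list are not reported here. Alternatives were other floors, 50 units added in place of a floor, median and quantile scaling, the mean of all probe sets, leaving out _x_at and _s_at probe sets (which can match related sequences), genes above the floor on both arrays only, a 3-fold rule and, added after seeing the data, scaling to the hybridization controls. Promoter windows are RefSeq's, on GRCm38.p6, and cover 9302 of the 11444 genes.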

Additional observations from a re-analysis of the deposited data

Results flagged for a closer look

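Il17re, which encodes a receptor chain for IL-17C, pointed opposite ways in the 24 h pairs. Without drug it had 78.2 units after TGF-β and 236.2 in untreated cells, a log2 difference of -1.59. With SP600125 it had 338.3 units after TGF-β and 38.9 with drug alone, a log2 difference of 2.19 from the floor. It drew attention because the only array on each side moved the opposite way in the other pair. The difference was not tested, since each condition had 1 array, and the drug pair includes the array with the high 18S control.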

How the results depend on the processing

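No paired analysis was possible because each condition had 1 array and the labels carry no replicate numbers. Against 646 genes higher and 226 lower, a floor at the 25th percentile (20.3 units) gave 1828 and 1152, one at the 75th percentile (419.8 units) 227 and 99, the mean of all probe sets 422 and 150, a 3-fold rule 162 and 17, and scaling to the hybridization controls, an alternative added after seeing the data, 382 and 607. The 2 other floors let through more or fewer genes by construction, a 3-fold rule is stricter, and for the other settings the cause was not tested. The totals of the remaining alternatives stayed within 1.5 times: 50 units added gave 659 and 268, median scaling 530 and 332, quantile normalization 529 and 266, no _x_at or _s_at probe sets 625 and 233, and only genes above the floor on both arrays 534 and 185. Similar totals did not mean the same genes. With 50 units added, 453 of the 646 higher genes and 147 of the 226 lower genes were still called. With quantile normalization these were 524 and 215. The share of higher genes among the calls was 74.1%, against 61.3% with the lower floor, 61.5% with median scaling and 38.6% with the hybridization controls. Sesn2 reversed, to -0.027, with the mean of its probe sets. Over the 247 named genes with a value, 1972 of 2187 log2 differences under an alternative lay within the spread between probe sets of a gene (SD 0.35), 214 moved by more and 1 reversed. Of 486 list medians 464 lay within that spread and 22, from 14 lists, moved by more. A change of sign within that spread did not count as reversed. So 0 list medians were counted as reversed, although several changed sign with the hybridization controls set equal. Small log2 differences of single genes can have changed sign in the same way. Dim signals limit the calls: the SD of the log2 difference was 0.59 in the dimmest 25% of genes, 0.60 and 0.55 in the next 2 such groups and 0.48 in the brightest.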

Other observations

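The array's own control probe sets include the transferrin receptor, which takes up iron and is typically high in dividing cells. Its 3′ probe set had 1173.0 units after 24 h of TGF-β and 2594.4 in untreated cells, its middle probe set 342.5 and 738.1, and its 5′ probe set 238.6 and 653.9, so all 3 were lower with TGF-β. At 12 h the 3′ probe set had 1925.1 units. In the drug arm it had 385.7 units after 24 h of TGF-β and 1352.7 with SP600125 alone. These control probe sets took no part in the counts of genes.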
